A study of Mus musculus with 15 samples.

Results

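The T cell receptor (TCR) complex and its signalling machinery were described through 49 genes of the 55421 listed in mouse CD4 T cell cultures. The genes were taken by symbol from a list of receptor subunits, kinases, adaptors, effector enzymes, calcium and NFAT genes, Ras-MAPK feedback genes and negative regulators. Each symbol matched 1 Ensembl gene ID, and all 49 passed the filter of at least 1 TPM (a length-corrected share of all transcripts, scaled to the same total in every library) in at least 3 libraries, as did 12800 genes in all. The list was chosen with earlier results of these data known, so counts of called genes describe it and are not independent support for it.

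Poly(A) RNA was sequenced from 15 libraries, 3 in each of 5 groups, harvested on day 5. Wild-type Treg cultures received either Srci1, a compound that the labels name without describing, or DMSO. Wild-type TH17 cultures likewise received Srci1 or DMSO, and TH17 cultures of the genotype STAT3-fl/fl CD4-cre (floxed Stat3 alleles with a Cre driven by Cd4, here called the STAT3 knockout) received DMSO. Whether the wild-type cells carry the Cre is not given. All cultures began as sorted naive CD4 T cells from spleen and lymph node and shared plate-bound antibodies against CD3 at 2 μg/ml and CD28 at 1 μg/ml, plus antibodies against IFNγ and IL-4 at 1 μg/ml each. Every group was thus stimulated through the receptor described here. Treg cultures had IL-2 at 200 U/ml and TGFβ, for which 0.5 ng/ml is given alongside the option of other doses. TH17 cultures had TGFβ at 2.5 ng/ml and IL-1β, IL-6 and IL-23 at 10 ng/ml each, so a comparison of the cultures also compares their cytokines. Cultures had been plated for 24 h when Srci1 was added, and its concentration is not given in the sources used here. The series sets loss of STAT3 and the compound side by side in TH17 cells. The sources used here do not give age, sex or strain, nor whether the 3 replicates of a group are distinct mice or cultures. The spread behind each p-value may therefore be technical.

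The TCR has no enzyme activity of its own. Its CD3 and zeta chains carry tyrosine motifs that Src family kinases phosphorylate, ZAP-70 binds them and phosphorylates the adaptors LAT and SLP-76, and these gather PLCγ1, VAV1 and Ras exchange factors. The signal then splits into calcium and NFAT, the route to NF-κB, and the Ras-MAPK cascade, while ubiquitin ligases, phosphatases, adaptors and lipid kinases restrain it. Dual-specificity phosphatases and Sprouty proteins are induced by MAPK activity and dampen it in turn.

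Sequences are shown first for 6 genes: Cd3e, Cd3d and Cd3g because they lie together on chromosome 9 yet differed between groups in different ways, Dusp6 and Spry1 because both feedback genes were called in all 5 pairwise comparisons, and Ubash3b because 1 of its 2 annotated starts, the one shown, holds a STAT letter match. Each is the RefSeq window from 250 bases before to 50 bases after an annotated start (build GRCm38.p6), written 5′ to 3′ along the gene. Capitals mark matches, on either strand, to a STAT motif (TTCNNNGAA), an AP-1 motif (TGANTCA), the NFAT core GGAAA and the EGR core GCGTGGG.
Cd3e, chr9:45009562-45009861, minus strand: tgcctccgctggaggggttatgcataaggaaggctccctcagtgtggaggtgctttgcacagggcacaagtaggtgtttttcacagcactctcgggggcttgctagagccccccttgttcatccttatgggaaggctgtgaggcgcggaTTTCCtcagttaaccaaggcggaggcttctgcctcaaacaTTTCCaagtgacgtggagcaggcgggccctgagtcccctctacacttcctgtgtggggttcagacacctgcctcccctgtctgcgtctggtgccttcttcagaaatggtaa
Cd3d, chr9:44981536-44981835, plus strand: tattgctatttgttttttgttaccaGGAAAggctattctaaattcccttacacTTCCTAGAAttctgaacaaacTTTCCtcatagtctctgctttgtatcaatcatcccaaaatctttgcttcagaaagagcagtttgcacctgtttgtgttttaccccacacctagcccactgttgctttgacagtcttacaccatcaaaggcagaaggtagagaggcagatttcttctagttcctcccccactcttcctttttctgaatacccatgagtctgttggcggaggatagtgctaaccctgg
Cd3g, chr9:44980382-44980681, minus strand: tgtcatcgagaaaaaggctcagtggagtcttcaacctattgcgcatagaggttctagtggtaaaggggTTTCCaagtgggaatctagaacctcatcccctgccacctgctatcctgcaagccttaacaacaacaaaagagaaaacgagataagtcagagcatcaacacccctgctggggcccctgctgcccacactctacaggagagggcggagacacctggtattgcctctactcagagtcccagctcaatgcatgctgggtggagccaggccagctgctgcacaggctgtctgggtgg
Ubash3b, chr9:41158013-41158312, minus strand: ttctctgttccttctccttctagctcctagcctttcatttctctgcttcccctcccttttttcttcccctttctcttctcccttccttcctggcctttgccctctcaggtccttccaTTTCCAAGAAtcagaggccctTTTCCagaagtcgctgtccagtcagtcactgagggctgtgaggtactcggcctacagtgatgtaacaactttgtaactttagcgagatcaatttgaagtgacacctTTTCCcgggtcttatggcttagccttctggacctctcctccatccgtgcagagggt
Dusp6, chr10:99262981-99263280, plus strand: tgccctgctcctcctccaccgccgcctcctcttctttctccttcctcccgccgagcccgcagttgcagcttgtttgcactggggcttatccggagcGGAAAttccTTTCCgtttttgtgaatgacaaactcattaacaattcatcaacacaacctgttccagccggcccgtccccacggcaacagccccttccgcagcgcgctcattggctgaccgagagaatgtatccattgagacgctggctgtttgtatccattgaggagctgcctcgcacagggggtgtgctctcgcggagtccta
Spry1, chr3:37639697-37639996, plus strand: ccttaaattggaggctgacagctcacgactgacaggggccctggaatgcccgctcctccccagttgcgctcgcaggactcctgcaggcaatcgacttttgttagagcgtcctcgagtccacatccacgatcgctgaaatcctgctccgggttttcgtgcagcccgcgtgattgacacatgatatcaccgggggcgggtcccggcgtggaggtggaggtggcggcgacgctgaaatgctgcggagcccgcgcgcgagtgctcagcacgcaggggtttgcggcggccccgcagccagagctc
The Cd3d window held a STAT match starting at -197 from the start site and NFAT cores at -225 and -176, and the Cd3g window held an NFAT core at -182. In the Cd3e window NFAT cores stood at -101 and -61. The Ubash3b window held a STAT match at -132, which overlaps an NFAT core match at -133, and further NFAT cores at -112 and -6. Dusp6 had NFAT cores at -154 and -145, and Spry1 had no match to any of the 4. Windows were found for 38 of the 49 genes, with 52 starts in all. The STAT letters stood in 5.77% of those windows, against 8.3% of 32851 windows in the table. The AP-1 letters stood in 1.92% against 7.81%, the NFAT core in 71.2% against 61.3%, and the EGR core in 3.85% against 5.04%. These are letter matches and do not show binding.

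The labels were checked against marker genes, and not all of the markers followed them. Stat3 was at 33.5, 38.4 and 30.7 TPM in the STAT3 knockout against 129.7, 133 and 99.8 TPM in DMSO TH17 libraries. That is 3.53-fold lower (limma adjusted p = 3.75e-09), with transcript left that a gene-level value cannot place in deleted or remaining exons. Il17a, the cytokine gene that defines TH17 cells, was at 0.00 to 0.24 TPM in Srci1-treated Treg, 0.00 to 0.08 TPM in DMSO Treg, 36.5 to 42.5 TPM in Srci1-treated TH17, 8.76 to 11.7 TPM in knockout and 1279.8 to 1378 TPM in DMSO TH17 libraries. Foxp3, which defines Treg cells, was at 257 to 279 TPM in Srci1-treated Treg, 127 to 131 TPM in DMSO Treg, 194 to 209 TPM in Srci1-treated TH17, 192 to 225 TPM in knockout and 9.37 to 13.6 TPM in DMSO TH17 libraries. Il17f and Il23r also had their highest group means in DMSO TH17 libraries, Il23r with overlap with the Srci1-treated TH17 libraries. Ccr6, another TH17 marker, was highest in the knockout, at 55.8 to 76.3 TPM against 19.2 to 34.7 TPM in DMSO TH17 libraries. Of the other Treg markers, Il2ra was at 1026 to 1101 TPM in Srci1-treated Treg, 719.9 to 732 TPM in DMSO Treg, 1155 to 1288 TPM in Srci1-treated TH17, 336 to 425 TPM in knockout and 572 to 785 TPM in DMSO TH17 libraries. Ikzf4 was at 25.1 to 30.2 TPM in Srci1-treated Treg, 19.2 to 30.9 TPM in DMSO Treg, 35.8 to 43.5 TPM in Srci1-treated TH17, 25.4 to 30.1 TPM in knockout and 14.9 to 33.1 TPM in DMSO TH17 libraries, and Ikzf2 reached at most 7.93 TPM, in the knockout, so neither set the Treg groups apart. The labelled TH17 groups other than DMSO carried more Foxp3 transcript than the labelled DMSO Treg group. B cell markers (5 of 5 above 0) summed to 13.3 to 13.8 TPM in the knockout against 0.75 to 0.99 TPM in DMSO TH17 libraries, and Cd8a stood at 4.68, 5.36 and 4.18 TPM in the knockout against 0.05, 0.00 and 0.00 TPM. The 6 CD8 T and NK markers summed to 18.7 to 22.9 TPM in the knockout, 89.2 to 117 TPM with Srci1 and 49.2 to 51.9 TPM in DMSO TH17 libraries, with Ncr1 at 0 in every library. That sum was mostly Klrd1 in TH17 cultures with Srci1 (77.1 to 104 TPM) and DMSO (41.1 to 44.8 TPM), against 0.91 to 1.84 TPM in the knockout. Prf1 went the other way, at 6.2 to 6.37 TPM in the knockout against 0.52 to 1.08 TPM in DMSO TH17 libraries, and Cd8b1 overlapped, at 7.06 to 9.47 TPM in the knockout against 6.56 to 7.71 TPM. The 6 myeloid and dendritic markers summed to 2.79 to 3.94 TPM in the knockout, against 0.12 to 0.28 TPM in DMSO TH17 libraries. Red blood cell markers (Hbb-bs and Hba-a1) summed to 16.7 to 28 TPM in Srci1-treated against 1.29 to 3.4 TPM in DMSO Treg libraries, and the 3 gamma delta T cell markers to at most 1.67 TPM in any library. The part of such cells in the results was not tested. In bulk RNA, fewer cells of a type and less RNA per cell cannot be told apart.

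Replicate 3 of the DMSO TH17 group stood apart. It was the lowest of its 3 libraries for 37 of the 49 genes, with a median ratio of 0.867 to the mean of the other libraries. Ribosomal protein transcripts held 30.4% of its TPM, against 26.5% and 28.1% in the others. That share also moved with the groups, at 20.3 to 21.3% in Srci1-treated Treg, 24.9 to 25.2% in DMSO Treg, 21.5 to 22.7% in Srci1-treated TH17 and 27.4 to 29.7% in knockout libraries. Since TPM values sum to the same total in every library, a lower ribosomal share raises the rest. Counts below are therefore given as deposited and after median-of-ratios scaling, which brings the median log2 difference of all tested genes close to 0. Sequencing depth is unknown from TPM.

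**Figure D1:**
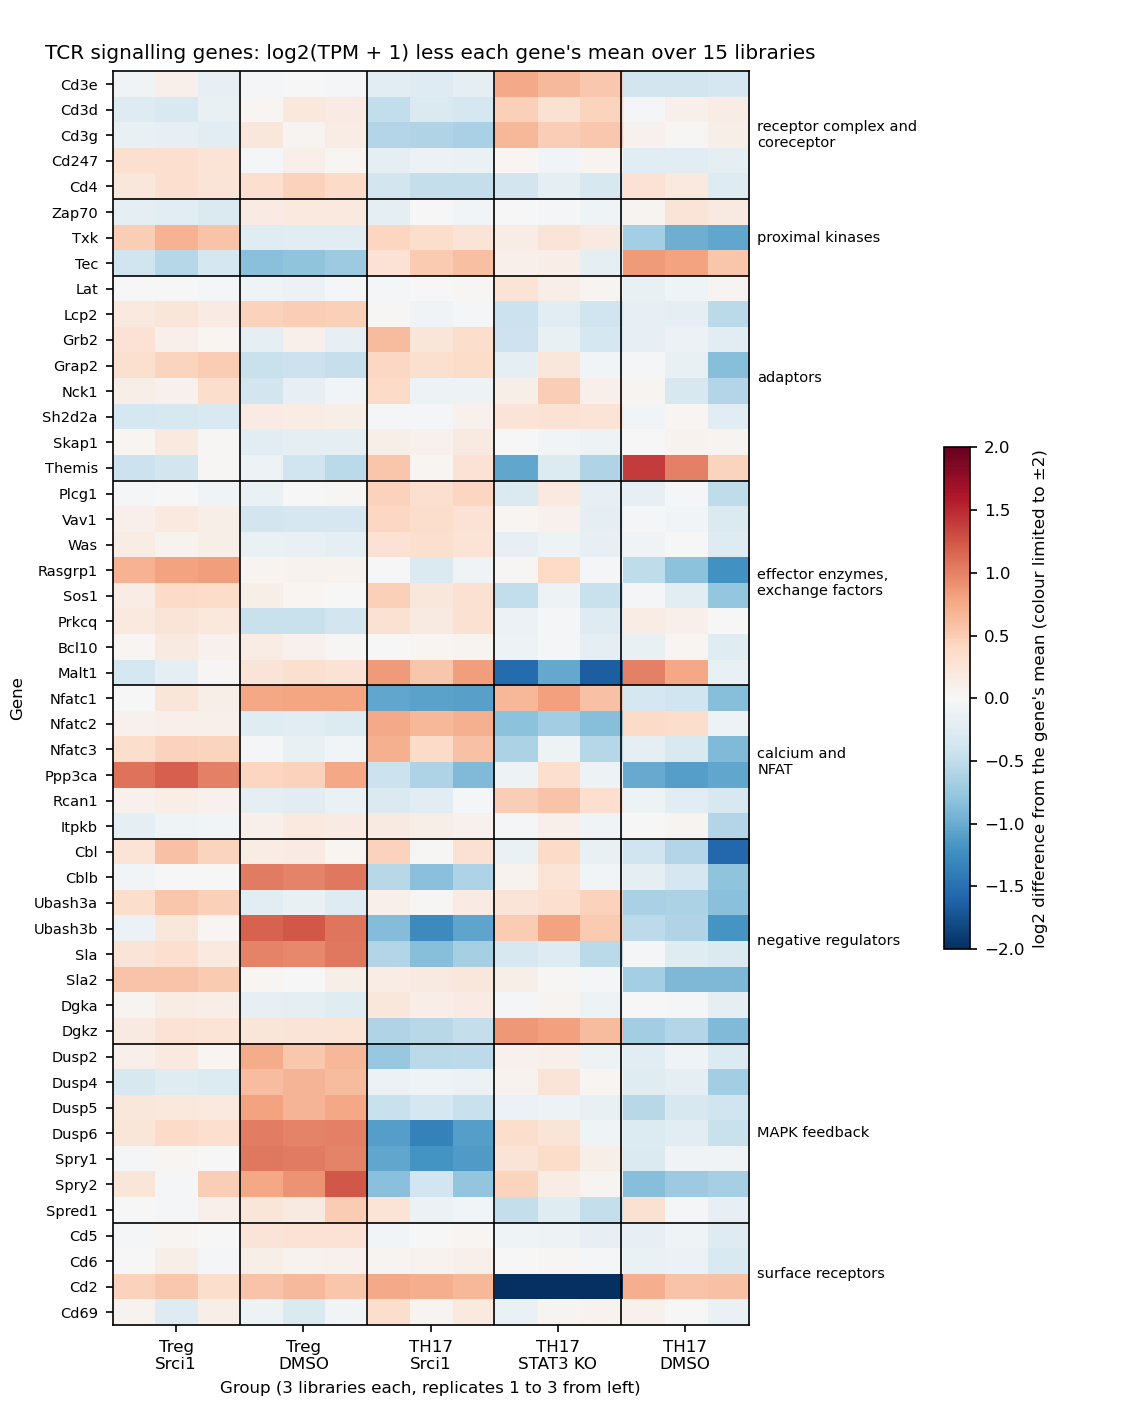
Heat map of log2(TPM + 1) of the 49 genes, less each gene's mean over the 15 libraries; rows are genes by role, columns are libraries by group, and red is above and blue below the gene's mean, with colour limited to 2 log2 units either way. Cd2 in the STAT3 knockout lies beyond that limit, all 7 MAPK feedback genes have their highest group mean in DMSO Treg libraries, and the third column of the DMSO TH17 group is lower than its neighbours for 37 of 49 genes.

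Differences were tested with limma on log2(TPM + 1) over all 12800 genes, with a call at a Benjamini-Hochberg adjusted p under 0.05. Comparisons that use DMSO TH17 libraries share them, and so do those that use DMSO Treg, Srci1-treated TH17 or knockout libraries. In Treg cells treated with Srci1, 6 of 7 MAPK feedback genes fell, the 8 negative regulators split into 3 higher and 3 lower, and Rasgrp1, Txk, Prkcq and Grap2 rose. With Srci1, 14 of the 49 genes were higher than with DMSO and 16 were lower, or 28.6% and 32.7%, where 17.1% of all tested genes were higher and 10.0% lower. The median of all tested genes was shifted by 0.11 (log2), and the 49 genes had a median of -0.11 relative to it. Median-of-ratios scaling gave 11 higher and 22 lower, where 10.7% of all tested genes were higher and 13.8% lower. By role, 6 of 7 MAPK feedback genes were lower and none higher, and 4 of 8 effector enzymes were higher and none lower (3 higher and 1 lower after median-of-ratios scaling, which left the feedback genes at 7 lower).

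Between the cultures in DMSO, Treg cells carried more transcript of 7 of 8 negative regulators and 6 of 7 MAPK feedback genes. There 25 of 49 genes were higher and 6 lower in Treg than in TH17 libraries, against 32.3% of all tested genes higher and 12.5% lower. The shift of all tested genes was 0.18 and the relative median of the 49 genes 0.10. Median-of-ratios scaling gave 19 higher and 11 lower, against 21.1% and 21.8% of all tested genes. No gene of either role was lower as deposited. After median-of-ratios scaling the counts were 7 higher and 1 lower (Dgka), and 6 higher and none lower.

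In TH17 cells treated with Srci1, Cd3d, Cd3g and the coreceptor gene Cd4 fell with 3 of 7 MAPK feedback genes, and 6 of 8 effector genes rose as deposited. Here 19 genes were higher and 10 lower with Srci1 than with DMSO, against 33.8% of all tested genes higher and 7.08% lower. With a shift of 0.21 the 49 genes had a relative median of -0.05. Median-of-ratios scaling gave 12 higher and 14 lower, against 16.6% and 16.5% of all tested genes. Those 3 of the 5 receptor and coreceptor genes were lower and none was higher. Of the 8 effector genes none was lower, and 4 were higher after median-of-ratios scaling, which turned the sign of Prkcq.

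With loss of STAT3, TH17 cells had higher Cd3e, Cd3g, Ubash3a, Ubash3b and Dgkz and lower Cd2, Malt1 and Themis. In the knockout 25 genes were higher and 9 lower than in wild-type DMSO TH17 libraries, against 30.9% of all tested genes higher and 18.9% lower. The shift was 0.13 and the relative median 0.09. Median-of-ratios scaling gave 19 higher and 14 lower, against 25.7% and 25.4% of all tested genes. Of 8 negative regulators 6 were higher and none lower as deposited, with Sla lower after median-of-ratios scaling. Without DMSO TH17 replicate 3, 22 genes were higher and 10 lower in the knockout comparison, 15 higher and 12 lower for Srci1 in TH17, and 23 higher and 9 lower for Treg against TH17.

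**Figure D2:**
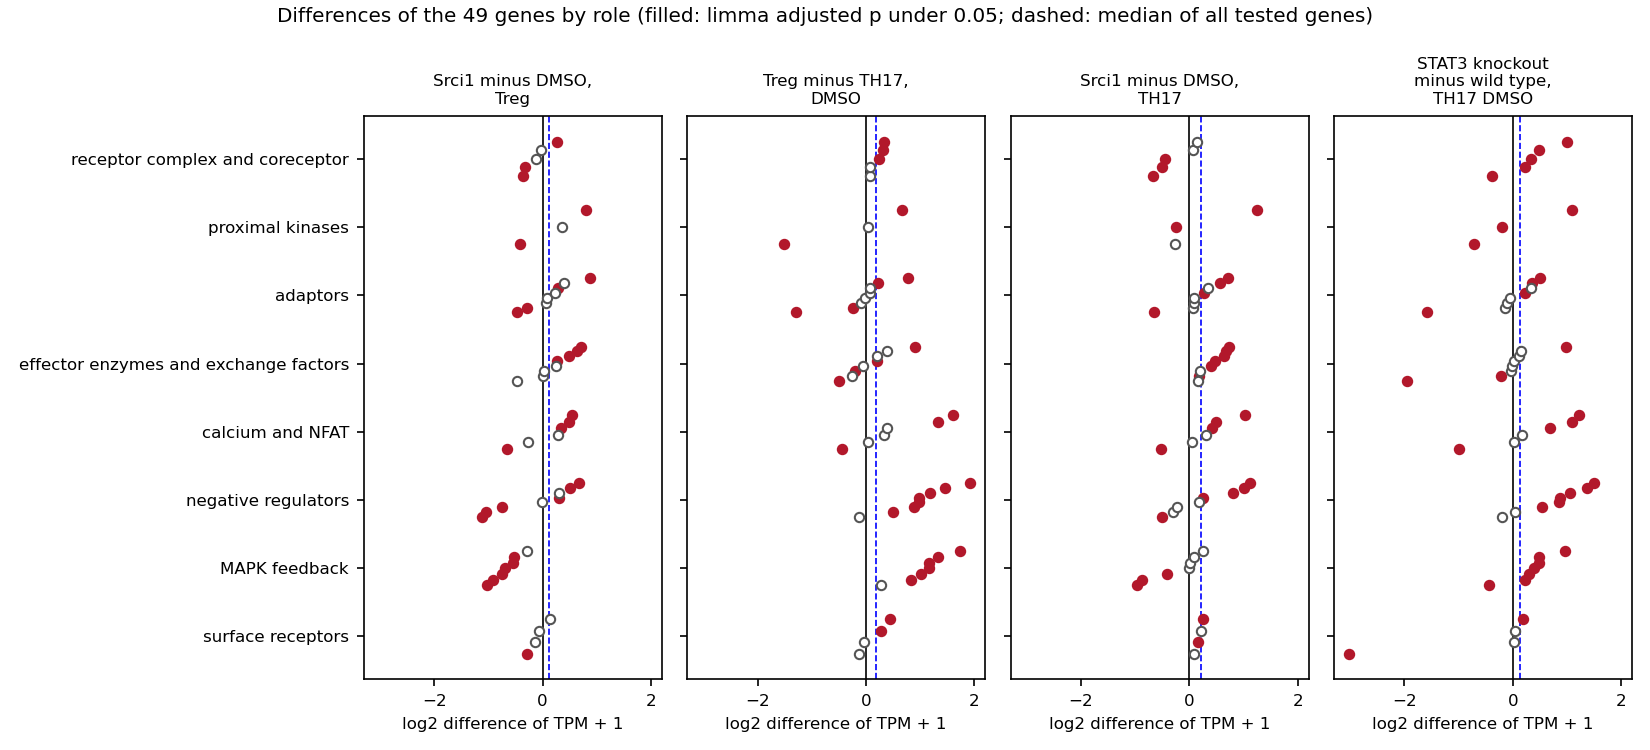
Log2 differences of TPM + 1 for the 49 genes by role in 4 comparisons (x axis), 1 point a gene, spread downward within a role only to keep points apart; filled points passed limma at an adjusted p under 0.05 and the dashed line is the median of all tested genes. Called MAPK feedback genes lie left of 0 with Srci1 in Treg (6 of 7) and right of 0 for Treg against TH17 (6 of 7), and the point farthest left is Cd2 in the knockout.

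The receptor complex comes first by role. Cd3e, on chromosome 9 (44998740 to 45009627, minus strand, GENCODE M21 on GRCm38; ENSMUSG00000032093.7), encodes CD3ε, an invariant chain of the receptor. It was at 241, 272 and 227 TPM in Srci1-treated and 246, 254 and 249.8 TPM in DMSO Treg libraries. In TH17 cultures it was at 219, 212 and 220.2 TPM with Srci1 and 428, 397 and 368 TPM in the knockout, against 196, 196 and 200.3 TPM with DMSO. The 3 knockout libraries stood above all 12 others, and the 2 Treg groups overlapped. Cd3e was 2.01-fold higher in the knockout (log2 difference 1.00 ± 0.07, limma adjusted p = 2.15e-08). With Srci1 it was not called in Treg (95% interval of the log2 difference -0.17 to 0.12) or in TH17 cells (-0.01 to 0.28). Treg libraries exceeded DMSO TH17 libraries by 0.34 as deposited, a call that was lost after median-of-ratios scaling at 0.12 (limma adjusted p = 0.277).

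Cd3g (44969572 to 44980431, minus strand) encodes CD3γ, which pairs with CD3ε. It was at 464, 456 and 444 TPM in Srci1-treated and 601, 534 and 569 TPM in DMSO Treg libraries. TH17 libraries held 342, 336 and 328 TPM with Srci1 and 811, 724 and 747 TPM in the knockout, against 543, 521 and 555 TPM with DMSO. Srci1 libraries were the lowest group in each culture and the knockout the highest of all, with no overlap in these pairs. Cd3g was 1.61-fold lower with Srci1 in TH17 (log2 difference -0.68 ± 0.05, limma adjusted p = 6.74e-07), 1.25-fold lower in Treg (log2 difference -0.32 ± 0.05, limma adjusted p = 0.000735) and 1.41-fold higher in the knockout (log2 difference 0.49 ± 0.05, limma adjusted p = 4.24e-06). Cd3d (44981786 to 44987339, plus strand), the CD3δ gene, starts 1355 bases from Cd3g on the other strand and 27841 bases from Cd3e. It was at 159 to 178 TPM in Srci1-treated Treg, 202 to 227 TPM in DMSO Treg, 139.8 to 161 TPM in Srci1-treated TH17, 244 to 274 TPM in knockout and 192 to 218 TPM in DMSO TH17 libraries. It fell with Srci1 in TH17 (log2 difference -0.45 ± 0.08, limma adjusted p = 0.00043) and in Treg cells (log2 difference -0.37 ± 0.08, limma adjusted p = 0.00236). In the knockout Cd3d was higher as deposited (log2 difference 0.34 ± 0.08, limma adjusted p = 0.00178), and the call was lost after median-of-ratios scaling (limma adjusted p = 0.149).

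Cd247, on chromosome 1, encodes the zeta chain, which carries most of the tyrosine motifs of the receptor. It was at 179, 182 and 173 TPM in Srci1-treated and 140.3, 154 and 147 TPM in DMSO Treg libraries, and at 126, 133 and 131 TPM in Srci1-treated, 148, 138 and 148 TPM in knockout and 123, 124 and 125 TPM in DMSO TH17 libraries. Srci1-treated Treg libraries were the highest group without overlap. The difference with Srci1 in Treg was 0.27 ± 0.05 (limma adjusted p = 0.00155) and lost its call after median-of-ratios scaling (adjusted p = 0.23). The coreceptor gene Cd4 was at 303 to 325 TPM in Srci1-treated Treg, 328 to 356 TPM in DMSO Treg, 185 to 199.7 TPM in Srci1-treated TH17, 199 to 224 TPM in knockout and 216 to 316 TPM in DMSO TH17 libraries. Cd4 fell with Srci1 in TH17 (log2 difference -0.51 ± 0.11, limma adjusted p = 0.00201) and in the knockout (log2 difference -0.38 ± 0.11, limma adjusted p = 0.01), where knockout and DMSO libraries overlapped. It was not called with Srci1 in Treg as deposited (log2 difference -0.12) but was called lower after median-of-ratios scaling. The receptor genes thus did not move as a block, since Cd3d and Cd3g were lower with Srci1 in both cultures while Cd3e was not called in either. Cd247 overlaps Pou2f1 on the opposite strand, and the strand used in counting is not given in the sources used here.

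**Figure D3:**
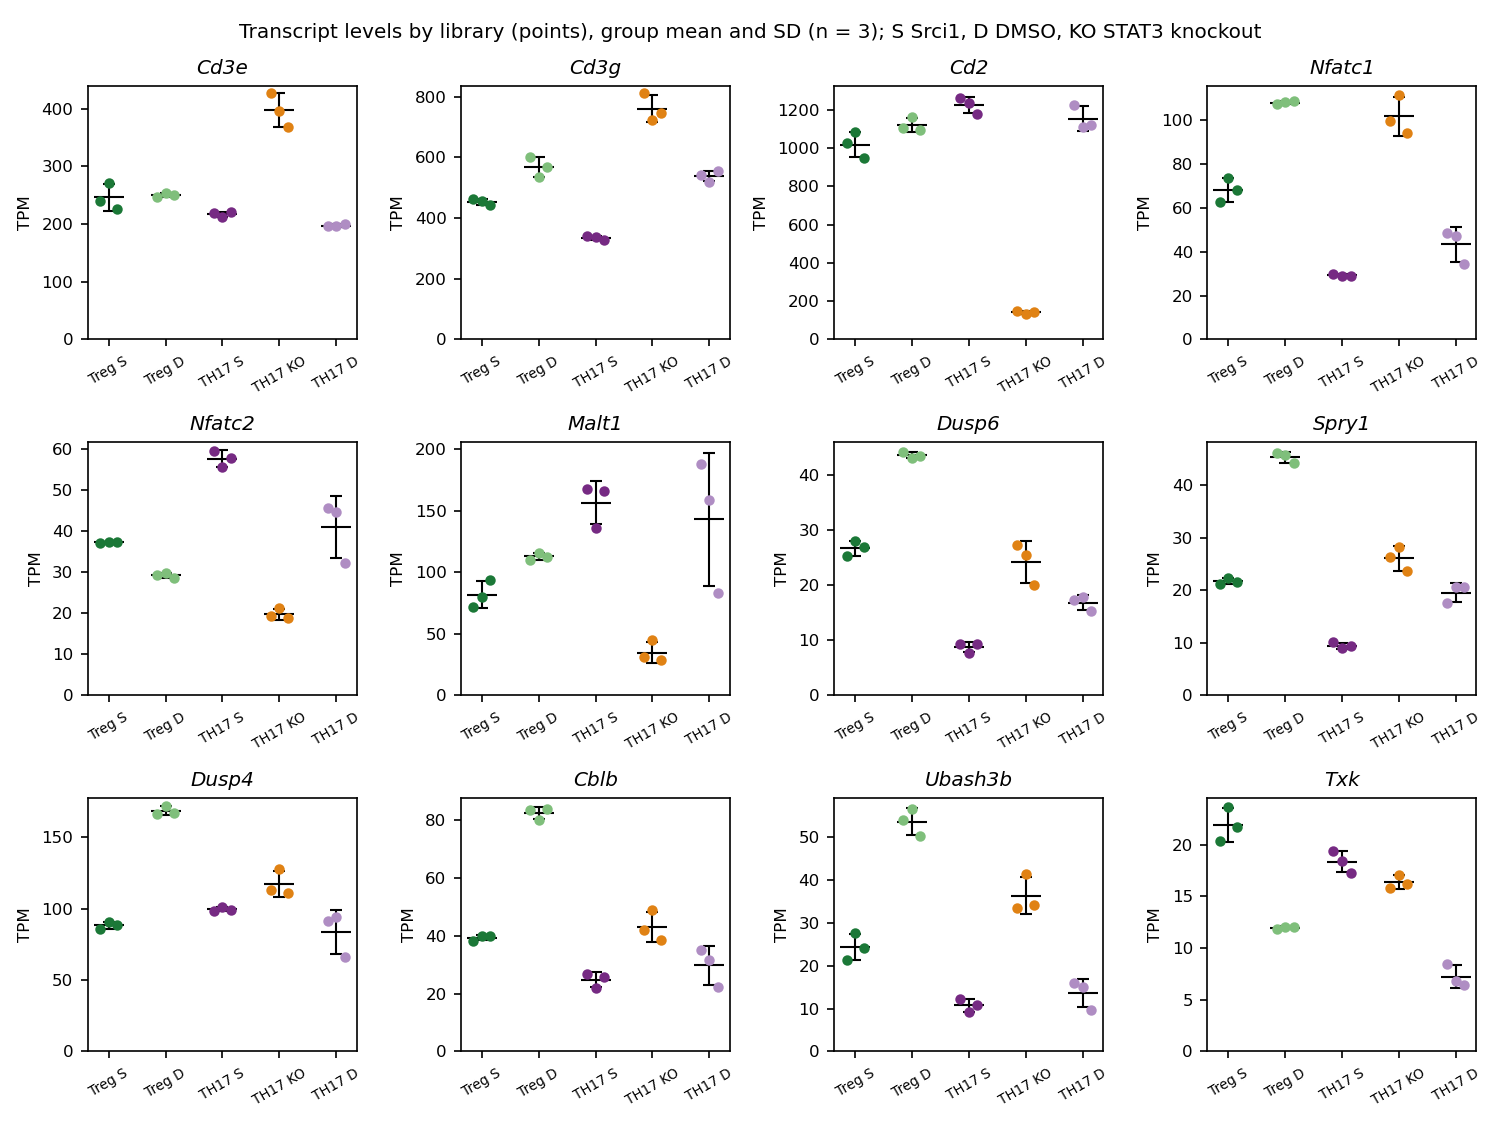
TPM of 12 genes (y axes from 0) in each library (points) by group on the x axis, with black bars for the group mean and SD of 3 libraries. Cd3e and Cd3g are highest in the knockout, Cd2 is at 131 to 149.8 TPM there and at 947 TPM or more in every other library, and Spry1, Dusp6, Dusp4, Cblb and Ubash3b are highest in DMSO Treg libraries.

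Among the proximal kinases, Zap70 encodes the kinase that binds the phosphorylated receptor. Its level was 143, 140.4 and 134 TPM in Srci1-treated Treg libraries, against 184, 186 and 188 TPM in DMSO Treg libraries. In TH17 cultures it was 142, 163 and 157 TPM with Srci1 and 162, 161 and 154 TPM in the knockout, against 170.1, 194 and 185 TPM with DMSO. Both Srci1 groups and the knockout lay below their DMSO group without overlap. Zap70 fell with Srci1 in Treg (log2 difference -0.42 ± 0.06, limma adjusted p = 0.000257) and in TH17 cells (log2 difference -0.25 ± 0.06, limma adjusted p = 0.00663). The knockout difference was smaller (log2 difference -0.20 ± 0.06, limma adjusted p = 0.0169) and lost its call without DMSO TH17 replicate 2 (adjusted p = 0.0793) or knockout replicate 3 (0.0577).

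Txk encodes a Tec family kinase of T cells. It was at 20.3, 23.6 and 21.7 TPM in Srci1-treated and 11.9, 12.1 and 12 TPM in DMSO Treg libraries, and at 19.4, 18.4 and 17.3 TPM in Srci1-treated, 15.8, 17.1 and 16.2 TPM in knockout and 8.47, 6.77 and 6.42 TPM in DMSO TH17 libraries. DMSO TH17 libraries were the lowest, and no pair of groups next to each other in level overlapped. Txk was 2.54-fold higher with Srci1 in TH17 (log2 difference 1.24 ± 0.10, limma adjusted p = 7.75e-07), 1.83-fold higher in Treg (log2 difference 0.81 ± 0.10, limma adjusted p = 5.25e-05) and 2.27-fold higher in the knockout (log2 difference 1.09 ± 0.10, limma adjusted p = 7.06e-07). Tec, its neighbour on chromosome 5 and a member of the same kinase family, showed another order. It was at 3.96, 3.4 and 4.16 TPM in Srci1-treated and 2.69, 2.75 and 2.96 TPM in DMSO Treg libraries, and at 7.03, 8.47 and 8.98 TPM in Srci1-treated, 6.04, 6.2 and 4.81 TPM in knockout and 10.8, 10.4 and 8.59 TPM in DMSO TH17 libraries. All Treg libraries lay below all TH17 libraries. Tec was 3.55-fold lower in DMSO Treg than in DMSO TH17 libraries (log2 difference -1.52 ± 0.13, limma adjusted p = 5.46e-07) and 1.75-fold lower in the knockout (log2 difference -0.71 ± 0.13, limma adjusted p = 0.000452), and it was not called with Srci1 in either culture as deposited. In TH17 it was lower with Srci1 after median-of-ratios scaling (-0.50, limma adjusted p = 0.00409), quantile normalization (-0.55, 0.00219) and rescaling without ribosomal protein and mitochondrial genes (-0.37, 0.0417).

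Among the adaptors, Lat changed little, while Grap2 rose with Srci1 and Themis fell in the knockout. Lat encodes the membrane adaptor that ZAP-70 phosphorylates. Its level was 438, 438 and 434 TPM in Srci1-treated and 415, 406 and 436 TPM in DMSO Treg libraries, and 436, 446 and 449 TPM in Srci1-treated, 533, 482 and 461 TPM in knockout and 397, 415 and 457 TPM in DMSO TH17 libraries. Its group means spanned 1.17-fold, and Lat was not called for Srci1 in either culture. The knockout call (log2 difference 0.22 ± 0.06, limma adjusted p = 0.00837) was lost after median-of-ratios scaling (adjusted p = 0.505). Grap2 encodes GADS, which joins LAT to SLP-76. It was at 169, 185 and 191 TPM in Srci1-treated and 98.9, 99.7 and 98 TPM in DMSO Treg libraries, and at 180.2, 168 and 175 TPM in Srci1-treated, 118, 158 and 129.7 TPM in knockout and 131, 122 and 74.2 TPM in DMSO TH17 libraries. Srci1 libraries stood above their DMSO group in both cultures. Grap2 was 1.84-fold higher with Srci1 in Treg (log2 difference 0.87 ± 0.16, limma adjusted p = 0.00148) and 1.6-fold higher in TH17 (log2 difference 0.71 ± 0.16, limma adjusted p = 0.00359). Without DMSO TH17 replicate 3 the TH17 log2 difference was 0.46.

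Themis encodes an adaptor needed for thymocyte selection. It was at 12.3, 13 and 17.2 TPM in Srci1-treated and 15.7, 12.6 and 11.4 TPM in DMSO Treg libraries. TH17 libraries held 25.5, 17.4 and 21 TPM with Srci1 and 7.73, 13.8 and 10.8 TPM in the knockout, against 46.4, 34.9 and 23.4 TPM with DMSO, with the DMSO libraries spread widely. Knockout libraries lay below all DMSO TH17 libraries, and Srci1 libraries overlapped them. Themis was 3.24-fold lower in the knockout (log2 difference -1.59 ± 0.24, limma adjusted p = 9.17e-05) and 2.64-fold lower in DMSO Treg than in DMSO TH17 libraries (log2 difference -1.29 ± 0.24, limma adjusted p = 0.000711). The Srci1 difference in TH17 (log2 difference -0.65 ± 0.24, limma adjusted p = 0.046) was not called without DMSO TH17 replicate 1 (log2 difference -0.43, adjusted p = 0.177), without DMSO TH17 replicate 2 (adjusted p = 0.101), or without Srci1 replicate 2 (0.151) or 3 (0.0948).

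The other adaptors changed less. Lcp2 encodes SLP-76, the scaffold that binds PLCγ1 and VAV1. It was at 208 to 219 TPM in Srci1-treated Treg, 257 to 261 TPM in DMSO Treg, 176 to 189 TPM in Srci1-treated TH17, 138 to 160.2 TPM in knockout and 127 to 166 TPM in DMSO TH17 libraries. It was higher in DMSO Treg than in DMSO TH17 libraries (log2 difference 0.78 ± 0.09, limma adjusted p = 7.8e-06) and fell with Srci1 in Treg (log2 difference -0.28 ± 0.09, limma adjusted p = 0.0291), a call that was lost with any 1 of the 6 Treg libraries left out. Sh2d2a encodes TSAd, an adaptor that binds the kinase LCK. It was at 71.3 to 73.7 TPM in Srci1-treated Treg, 99.4 to 102 TPM in DMSO Treg, 88.5 to 96.9 TPM in Srci1-treated TH17, 110.0 to 112 TPM in knockout and 77.6 to 93.5 TPM in DMSO TH17 libraries, and it fell with Srci1 in Treg (log2 difference -0.47 ± 0.07, limma adjusted p = 0.000153). Grb2, which brings SOS1 to LAT, was at 159 to 188 TPM in Srci1-treated Treg, 136 to 165 TPM in DMSO Treg, 182 to 239 TPM in Srci1-treated TH17, 116 to 138 TPM in knockout and 134 to 142 TPM in DMSO TH17 libraries. It rose with Srci1 in TH17 (log2 difference 0.57 ± 0.11, limma adjusted p = 0.000963). Skap1, an adaptor of integrin activation, was at 139.8 to 158 TPM in Srci1-treated Treg, 119 to 121 TPM in DMSO Treg, 147 to 157 TPM in Srci1-treated TH17, 128 to 138 TPM in knockout and 138 to 145 TPM in DMSO TH17 libraries. Its group means spanned 1.26-fold. Nck1, an adaptor of the actin machinery, was at 23.1 to 28 TPM in Srci1-treated Treg, 16.5 to 20.7 TPM in DMSO Treg, 20.1 to 28.5 TPM in Srci1-treated TH17, 23.2 to 30.7 TPM in knockout and 14.1 to 22.6 TPM in DMSO TH17 libraries. Neighbouring groups of Nck1 overlapped throughout, and its knockout call (log2 difference 0.51 ± 0.18, limma adjusted p = 0.0271) ended when DMSO TH17 replicate 3 (log2 difference 0.36, limma adjusted p = 0.12), DMSO TH17 replicate 2 (0.0668) or knockout replicate 2 (0.119) was left out. Lcp2 overlaps a coding gene on the opposite strand.

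Of the effector enzymes, Rasgrp1 encodes the diacylglycerol-dependent Ras exchange factor of T cells. It was at 75.2, 81.3 and 82.6 TPM in Srci1-treated and 47.8, 48.4 and 48.2 TPM in DMSO Treg libraries, and at 45.5, 37.4 and 44 TPM in Srci1-treated, 46.5, 60.7 and 45.3 TPM in knockout and 31.9, 25.6 and 19.3 TPM in DMSO TH17 libraries. DMSO TH17 libraries were the lowest group without overlap. Rasgrp1 was 1.65-fold higher with Srci1 in TH17 (log2 difference 0.73 ± 0.15, limma adjusted p = 0.00189), 1.65-fold higher in Treg (log2 difference 0.71 ± 0.15, limma adjusted p = 0.00328) and 1.99-fold higher in the knockout (log2 difference 0.98 ± 0.15, limma adjusted p = 9.28e-05). Sos1, the other Ras exchange factor listed, was at 4.4, 5.35 and 5.29 TPM in Srci1-treated and 4.31, 4.05 and 3.88 TPM in DMSO Treg libraries, and at 5.84, 4.7 and 5.05 TPM in Srci1-treated, 2.47, 3.54 and 2.58 TPM in knockout and 3.82, 3.22 and 1.87 TPM in DMSO TH17 libraries. It was 1.75-fold higher with Srci1 in TH17 without overlap (log2 difference 0.67 ± 0.18, limma adjusted p = 0.0087) and was not called in the knockout (95% interval -0.40 to 0.37). Sos1 overlaps Arhgef33 on the opposite strand.

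Malt1 encodes the paracaspase that carries the signal to NF-κB. Its level was 71.9, 80.2 and 94.1 TPM in Srci1-treated and 110.2, 116 and 113 TPM in DMSO Treg libraries. TH17 libraries held 168, 136 and 167 TPM with Srci1 and 31.2, 44.8 and 28.8 TPM in the knockout, against 188, 159 and 82.9 TPM with DMSO. The knockout libraries were the lowest of all 15, and DMSO TH17 replicate 3 stood well below the other DMSO TH17 libraries. Malt1 was 4.1-fold lower in the knockout (log2 difference -1.95 ± 0.24, limma adjusted p = 1.17e-05). With Srci1 in Treg it was not called as deposited but was called lower after median-of-ratios scaling. Bcl10, which acts with MALT1, was nearly flat, at 50.4 to 55.2 TPM in Srci1-treated Treg, 49.7 to 53.9 TPM in DMSO Treg, 49.2 to 50.5 TPM in Srci1-treated TH17, 43.1 to 47.7 TPM in knockout and 40.8 to 50.1 TPM in DMSO TH17 libraries, with group means spanning 1.16-fold.

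Prkcq encodes protein kinase Cθ, which acts on the route to NF-κB. It was at 91.6, 96 and 92.5 TPM in Srci1-treated and 58.9, 59 and 61.8 TPM in DMSO Treg libraries, and at 99.2, 90.7 and 99.3 TPM in Srci1-treated, 73.7, 78.2 and 66.8 TPM in knockout and 88.6, 86.6 and 79.4 TPM in DMSO TH17 libraries. DMSO Treg libraries were the lowest group. Prkcq was 1.56-fold higher with Srci1 in Treg (log2 difference 0.63 ± 0.07, limma adjusted p = 1.68e-05). In TH17 the difference was 0.18 (limma adjusted p = 0.0476) as deposited and -0.09 after median-of-ratios scaling (adjusted p = 0.228), so its direction depends on the scaling. Leaving out DMSO TH17 replicate 2 or 3, or Srci1 replicate 1 or 3, also ended that call (limma adjusted p = 0.0679, 0.158, 0.136 and 0.138 in that order). Plcg1 (PLCγ1), Vav1 (a guanine nucleotide exchange factor) and Was (the actin regulator WASP) rose with Srci1 in TH17. Plcg1 was at 135, 123 and 132 TPM in Srci1-treated and 87.7, 95.1 and 68.2 TPM in DMSO TH17 libraries (log2 difference 0.64 ± 0.12, limma adjusted p = 0.00124), and in the other groups its levels ran up to 113 TPM. Vav1 was at 81.4 to 86.9 TPM in Srci1-treated Treg, 58.9 to 60.1 TPM in DMSO Treg, 93.4 to 101 TPM in Srci1-treated TH17, 66.7 to 80.8 TPM in knockout and 61.8 to 73.6 TPM in DMSO TH17 libraries (log2 difference 0.48 ± 0.08, limma adjusted p = 0.000427 with Srci1 in TH17). Was was at 89.7 to 94.7 TPM in Srci1-treated Treg, 74.7 to 77.3 TPM in DMSO Treg, 103 to 106 TPM in Srci1-treated TH17, 75.7 to 79.4 TPM in knockout and 71 to 84.8 TPM in DMSO TH17 libraries, and its call in TH17 (log2 difference 0.40 ± 0.06, limma adjusted p = 0.000276) was lost after median-of-ratios scaling (limma adjusted p = 0.0827). Plcg1 overlaps Zhx3 on the opposite strand.

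In the calcium branch, calcineurin removes phosphate from NFAT proteins, which then enter the nucleus. Nfatc1 was at 62.6, 73.6 and 68.1 TPM in Srci1-treated and 107, 108 and 109 TPM in DMSO Treg libraries. In TH17 cultures it was at 30, 29.1 and 28.9 TPM with Srci1 and 99.4, 111 and 94.3 TPM in the knockout, against 48.7, 47 and 34.2 TPM with DMSO. Srci1 libraries lay below DMSO libraries in both cultures, and the knockout reached the level of DMSO Treg libraries. Nfatc1 was 1.59-fold lower with Srci1 in Treg (log2 difference -0.66 ± 0.11, limma adjusted p = 0.000687) and lower in TH17 (log2 difference -0.53 ± 0.11, limma adjusted p = 0.00213), and it was 2.35-fold higher in the knockout (log2 difference 1.23 ± 0.11, limma adjusted p = 5.99e-07). Between the cultures in DMSO it was 2.49-fold higher in Treg (log2 difference 1.32 ± 0.11, limma adjusted p = 4.66e-07).

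Nfatc2, the NFAT gene best known from resting T cells, was lowest where Nfatc1 was high, in the knockout and in DMSO Treg libraries. It was at 37.1, 37.4 and 37.4 TPM in Srci1-treated and 29.4, 29.9 and 28.7 TPM in DMSO Treg libraries, and at 59.7, 55.6 and 57.8 TPM in Srci1-treated, 19.3, 21.2 and 18.8 TPM in knockout and 45.8, 44.8 and 32.2 TPM in DMSO TH17 libraries. Srci1 libraries lay above their DMSO group in both cultures, and knockout libraries below all others. Nfatc2 was 2.07-fold lower in the knockout (95% interval of the log2 difference -1.23 to -0.77, limma adjusted p = 3.15e-06). It rose with Srci1 in TH17 (log2 difference 0.50 ± 0.11, limma adjusted p = 0.00236) and in Treg cells (log2 difference 0.34 ± 0.11, limma adjusted p = 0.0326), the Treg call being lost without any 1 of the 6 Treg libraries (adjusted p up to 0.0878). Nfatc3 was at 60.3, 65.1 and 64.5 TPM in Srci1-treated and 46.5, 42.6 and 45.3 TPM in DMSO Treg libraries, and at 77.9, 61.5 and 70.9 TPM in Srci1-treated, 29.9, 44 and 31.3 TPM in knockout and 41.2, 37.8 and 25 TPM in DMSO TH17 libraries. Srci1 libraries lay above DMSO libraries in both cultures. Nfatc3 was 2.02-fold higher with Srci1 in TH17 (log2 difference 1.02 ± 0.17, limma adjusted p = 0.000379), and it overlaps Esrp2 on the opposite strand.

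Ppp3ca encodes the calcineurin Aα catalytic subunit. It was at 13.8, 14.9 and 12.9 TPM in Srci1-treated and 8.42, 8.65 and 10.9 TPM in DMSO Treg libraries, and at 4.15, 3.55 and 2.77 TPM in Srci1-treated, 5.5, 7.82 and 5.53 TPM in knockout and 2.47, 2.24 and 2.38 TPM in DMSO TH17 libraries. No groups next to each other in level overlapped, and Treg libraries were the highest. Ppp3ca was 3.94-fold higher in DMSO Treg than in DMSO TH17 libraries (log2 difference 1.61 ± 0.15, limma adjusted p = 1.36e-06) and 2.66-fold higher in the knockout (log2 difference 1.10 ± 0.15, limma adjusted p = 3.69e-05). Rcan1, a calcineurin inhibitor, was at 8.4 to 8.73 TPM in Srci1-treated Treg, 6.56 to 7.12 TPM in DMSO Treg, 6.23 to 7.74 TPM in Srci1-treated TH17, 10.2 to 12.1 TPM in knockout and 6.09 to 7.26 TPM in DMSO TH17 libraries, and it rose in the knockout (log2 difference 0.68 ± 0.11, limma adjusted p = 0.000103). Itpkb, a kinase that consumes the calcium messenger IP3, was at 23.4 to 25.6 TPM in Srci1-treated Treg, 28.8 to 30.8 TPM in DMSO Treg, 28.3 to 30.3 TPM in Srci1-treated TH17, 25.5 to 28.6 TPM in knockout and 17.5 to 27.9 TPM in DMSO TH17 libraries and was not called in any of the 5 pairwise comparisons as deposited.

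The ratio of related genes within a library does not depend on the scaling of that library. The pairs were chosen after their values were seen, so the ratios are descriptive. Nfatc1 stood to Nfatc2 as 1.69, 1.97 and 1.82 in Srci1-treated Treg and 3.64, 3.62 and 3.78 in DMSO Treg libraries. In TH17 cultures the ratio was 0.502, 0.523 and 0.5 with Srci1 and 5.14, 5.25 and 5.02 in the knockout, against 1.06, 1.05 and 1.06 with DMSO. The groups did not overlap, Srci1 libraries were lower and knockout libraries higher than DMSO libraries, and DMSO TH17 replicate 3 did not stand apart in this ratio. That library did stand apart from the other DMSO TH17 libraries for Cblb over Cbl (2.08 against 1.38 and 1.41). It also did for Ubash3b over Ubash3a (0.321 against 0.459 and 0.428). Cd3e stood to Cd3g as 0.542 on average with Srci1 and 0.441 with DMSO in Treg, and as 0.648 with Srci1 and 0.523 in the knockout against 0.366 with DMSO in TH17 libraries.

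**Figure D4:**
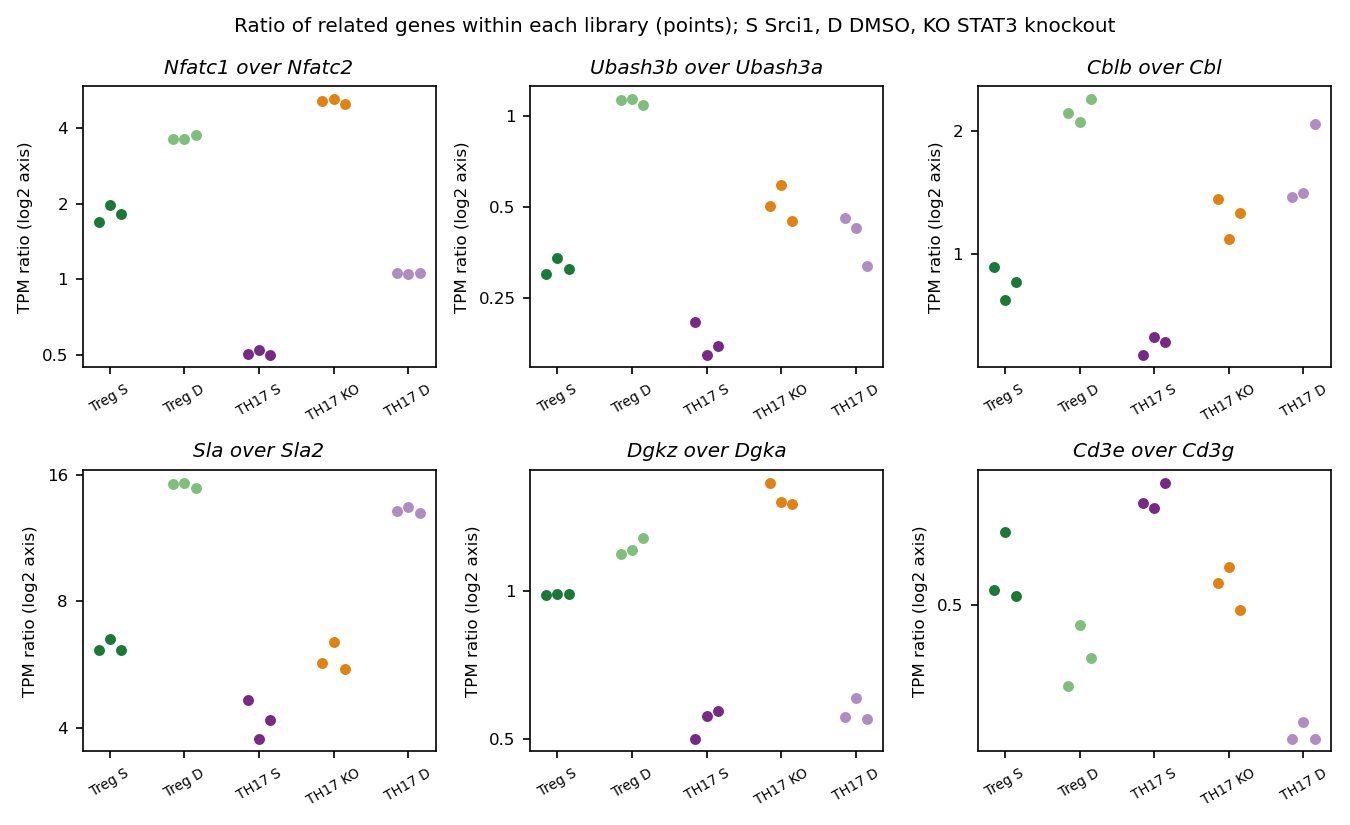
Ratio of the TPM of 6 pairs of related genes in each library (points, y axis on a log2 scale) by group. Nfatc1 over Nfatc2 separates all 5 groups, from about 0.5 in Srci1-treated TH17 to 5.02 or more in knockout libraries, and Ubash3b over Ubash3a and Cblb over Cbl are lower with Srci1 than with DMSO in both cultures.

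Several negative regulators come as pairs of related genes whose members differed in their levels across groups. In Treg cells Srci1 lowered Cblb, Ubash3b and Sla and raised Ubash3a and Sla2. Cblb encodes the ubiquitin ligase CBL-B, which raises the threshold of T cell activation. It was at 38.3, 39.7 and 39.9 TPM in Srci1-treated and 83.2, 79.9 and 83.7 TPM in DMSO Treg libraries, and at 26.9, 21.8 and 25.7 TPM in Srci1-treated, 42.1, 48.6 and 38.4 TPM in knockout and 35.2, 31.5 and 22.4 TPM in DMSO TH17 libraries. DMSO Treg libraries stood above all others. Cblb was 2.09-fold lower with Srci1 in Treg (log2 difference -1.05 ± 0.14, limma adjusted p = 8.45e-05) and 2.77-fold higher in DMSO Treg than in DMSO TH17 libraries (log2 difference 1.46 ± 0.14, limma adjusted p = 1.21e-06). Its knockout difference was 0.54 (limma adjusted p = 0.00478), and 0.35 without DMSO TH17 replicate 3 (adjusted p = 0.0129). Cbl, the related ligase, was at 41, 51.3 and 46.7 TPM in Srci1-treated and 37.7, 38.1 and 35 TPM in DMSO Treg libraries, and at 47.2, 34.6 and 42.1 TPM in Srci1-treated, 30.9, 44.5 and 30.4 TPM in knockout and 25.5, 22.4 and 10.8 TPM in DMSO TH17 libraries. DMSO TH17 libraries were the lowest, replicate 3 lowest of all 15. Cbl was 2.11-fold higher with Srci1 in TH17 (log2 difference 1.11 ± 0.24, limma adjusted p = 0.00269). Without DMSO TH17 replicate 3, that log2 difference was 0.75. Cbl then had 0.52 in the knockout, against 0.88 with replicate 3, and 0.61 for Treg against TH17, against 0.97 with it.

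Ubash3b encodes STS-1, a phosphatase that acts on ZAP-70, and Ubash3a encodes the related protein STS-2. Ubash3b was at 21.4, 27.6 and 24.1 TPM in Srci1-treated and 54, 56.5 and 50.2 TPM in DMSO Treg libraries, and at 12.3, 9.12 and 10.8 TPM in Srci1-treated, 33.6, 41.3 and 34.2 TPM in knockout and 16, 15.1 and 9.79 TPM in DMSO TH17 libraries. DMSO Treg libraries were the highest, the knockout came next, and the DMSO and Srci1 TH17 groups overlapped. Ubash3b was 2.2-fold lower with Srci1 in Treg (log2 difference -1.11 ± 0.16, limma adjusted p = 0.000233), 2.66-fold higher in the knockout (log2 difference 1.37 ± 0.16, limma adjusted p = 8.99e-06) and 3.93-fold higher in DMSO Treg than in DMSO TH17 libraries (log2 difference 1.92 ± 0.16, limma adjusted p = 4.69e-07). Ubash3a was at 71, 81.1 and 77 TPM in Srci1-treated and 47.6, 49.6 and 46.1 TPM in DMSO Treg libraries, and at 59.1, 56.1 and 61.8 TPM in Srci1-treated, 66.4, 69.9 and 75.9 TPM in knockout and 34.9, 35.4 and 30.5 TPM in DMSO TH17 libraries. Both Srci1 groups stood above their DMSO group. Ubash3a was 1.76-fold higher with Srci1 in TH17 (log2 difference 0.80 ± 0.08, limma adjusted p = 4.81e-06), 1.6-fold higher in Treg (log2 difference 0.67 ± 0.08, limma adjusted p = 3.44e-05) and 2.1-fold higher in the knockout (log2 difference 1.05 ± 0.08, limma adjusted p = 7.42e-08).

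Sla and Sla2 encode Src-like adaptor proteins that help to take the receptor down. Sla was at 98.3, 104 and 94.5 TPM in Srci1-treated and 164, 160.4 and 171 TPM in DMSO Treg libraries, and at 54.4, 45.3 and 51.8 TPM in Srci1-treated, 65.3, 68.5 and 56.1 TPM in knockout and 80.6, 69.4 and 66.8 TPM in DMSO TH17 libraries. It was 1.67-fold lower with Srci1 in Treg (log2 difference -0.74 ± 0.09, limma adjusted p = 5.96e-05) and lower in TH17 (log2 difference -0.51 ± 0.09, limma adjusted p = 0.00075), with no overlap in either culture. DMSO Treg libraries were the highest, 2.29-fold over DMSO TH17 libraries (log2 difference 1.19 ± 0.09, limma adjusted p = 1.84e-07). Sla2 was at 16, 16 and 15.4 TPM in Srci1-treated and 10.8, 10.5 and 11.5 TPM in DMSO Treg libraries, and at 11.7, 12 and 12.4 TPM in Srci1-treated, 11.5, 10.7 and 10.2 TPM in knockout and 6.15, 5.18 and 5.14 TPM in DMSO TH17 libraries. DMSO TH17 libraries were the lowest group. Sla2 was 2.19-fold higher with Srci1 in TH17 (log2 difference 1.01 ± 0.09, limma adjusted p = 2.15e-06), and the Treg difference was smaller (log2 difference 0.50 ± 0.09, limma adjusted p = 0.00126). Sla overlaps Tg and Sla2 overlaps Rab5if on the opposite strand.

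Dgkz and Dgka encode diacylglycerol kinases, which remove the lipid that activates RASGRP1. Dgkz was at 174, 187 and 185 TPM in Srci1-treated and 181, 183 and 186 TPM in DMSO Treg libraries, and at 100.2, 104 and 109.7 TPM in Srci1-treated, 280.1, 270.3 and 238 TPM in knockout and 94.3, 102 and 82.3 TPM in DMSO TH17 libraries. The knockout was the highest group, and Srci1 and DMSO libraries overlapped in both cultures. Dgkz was 2.83-fold higher in the knockout (95% interval of the log2 difference 1.33 to 1.66, limma adjusted p = 1.63e-09), 1.98-fold higher in DMSO Treg than in DMSO TH17 libraries, and was not called with Srci1 in Treg (95% interval -0.18 to 0.16) or TH17 cells (0.01 to 0.34). Dgka was at 178 to 189 TPM in Srci1-treated Treg, 145 to 152 TPM in DMSO Treg, 187 to 200.3 TPM in Srci1-treated TH17, 159 to 178 TPM in knockout and 150.4 to 170.3 TPM in DMSO TH17 libraries. It rose with Srci1 in Treg (log2 difference 0.30 ± 0.06, limma adjusted p = 0.00236), while in TH17 its direction depends on the scaling (0.25 as deposited and -0.02 after median-of-ratios scaling). The genes that both kinases overlap on the opposite strand are Gm9821 for Dgkz and Pmel for Dgka.

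All 7 MAPK feedback genes had their highest group mean in DMSO Treg libraries. For 6 of them, Spred1 being the exception, the DMSO Treg libraries overlapped no other group and the gene fell with Srci1 in Treg cells. Dusp6, which encodes a phosphatase specific for ERK, was at 25.3, 28 and 26.9 TPM in Srci1-treated and 44.2, 43.1 and 43.6 TPM in DMSO Treg libraries. In TH17 cultures it was at 9.3, 7.74 and 9.31 TPM with Srci1 and 27.3, 25.5 and 20 TPM in the knockout, against 17.4, 17.9 and 15.3 TPM with DMSO. Each Srci1 group lay below its DMSO group, and each knockout library above each DMSO TH17 library. Dusp6 was 1.63-fold lower with Srci1 in Treg (log2 difference -0.69 ± 0.11, limma adjusted p = 0.000518), 1.92-fold lower in TH17 (log2 difference -0.87 ± 0.11, limma adjusted p = 5.1e-05) and 2.59-fold higher in DMSO Treg than in DMSO TH17 libraries (log2 difference 1.32 ± 0.11, limma adjusted p = 4.47e-07). In the knockout it was 1.44-fold higher (log2 difference 0.49 ± 0.11, limma adjusted p = 0.00226).

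Spry1 encodes Sprouty1, an inhibitor of Ras-MAPK signalling. It was at 21.2, 22.3 and 21.6 TPM in Srci1-treated and 46.1, 45.6 and 44.1 TPM in DMSO Treg libraries, and at 10.1, 8.98 and 9.32 TPM in Srci1-treated, 26.3, 28.2 and 23.6 TPM in knockout and 17.5, 20.6 and 20.6 TPM in DMSO TH17 libraries. No groups next to each other in level overlapped, with DMSO Treg highest and Srci1-treated TH17 lowest. Spry1 was 2.09-fold lower with Srci1 in Treg (log2 difference -1.03 ± 0.09, limma adjusted p = 1.88e-06) and 2.07-fold lower in TH17 (log2 difference -0.97 ± 0.09, limma adjusted p = 2.06e-06). It was 1.33-fold higher in the knockout (log2 difference 0.40 ± 0.09, limma adjusted p = 0.00183) and 2.31-fold higher in DMSO Treg than in DMSO TH17 libraries (log2 difference 1.17 ± 0.09, limma adjusted p = 1.21e-07).

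Dusp4, a nuclear MAPK phosphatase gene, was at 85.9, 90.5 and 88.3 TPM in Srci1-treated and 166, 172 and 167 TPM in DMSO Treg libraries, and at 98.5, 101 and 98.8 TPM in Srci1-treated, 113, 128 and 111 TPM in knockout and 91.1, 94.2 and 66.1 TPM in DMSO TH17 libraries. It was 1.91-fold lower with Srci1 in Treg (log2 difference -0.92 ± 0.10, limma adjusted p = 2.35e-05) and was not called in TH17 (log2 difference 0.26, 95% interval 0.04 to 0.49). Leaving out DMSO TH17 replicate 1 or 2 made the TH17 difference a call (0.33 and 0.35, limma adjusted p = 0.0316 and 0.0209 in that order), and leaving out replicate 3 gave 0.10. Dusp5, another nuclear ERK phosphatase gene, was at 33.8, 33.2 and 32.7 TPM in Srci1-treated and 50.5, 46.3 and 49.4 TPM in DMSO Treg libraries, and at 20.6, 22.3 and 20.7 TPM in Srci1-treated, 26.2, 26.5 and 25.7 TPM in knockout and 19.1, 22.7 and 21.4 TPM in DMSO TH17 libraries. It fell with Srci1 in Treg (log2 difference -0.54 ± 0.07, limma adjusted p = 0.000127), and its TH17 values overlapped. Between the cultures in DMSO, Dusp4 was 2.01-fold higher and Dusp5 2.31-fold higher in Treg libraries.

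Dusp2, also a MAPK phosphatase gene, was at 109 to 122 TPM in Srci1-treated Treg, 155 to 177 TPM in DMSO Treg, 62.6 to 73.6 TPM in Srci1-treated TH17, 99.1 to 115 TPM in knockout and 87.5 to 101 TPM in DMSO TH17 libraries. It fell with Srci1 in Treg (log2 difference -0.53 ± 0.09, limma adjusted p = 0.000504) and in TH17 cells (log2 difference -0.42 ± 0.09, limma adjusted p = 0.00191). Spry2, a Sprouty gene at a low level, was at 1.27 to 2.27 TPM in Srci1-treated Treg, 2.99 to 4.53 TPM in DMSO Treg, 0.30 to 0.79 TPM in Srci1-treated TH17, 1.41 to 2.15 TPM in knockout and 0.29 to 0.46 TPM in DMSO TH17 libraries. It fell with Srci1 in Treg (log2 difference -0.75 ± 0.19, limma adjusted p = 0.00934), and log2(TPM + 1) understates the change of so low a gene. Spred1, a Ras inhibitor related to Sprouty, was at 6.16 to 6.8 TPM in Srci1-treated Treg, 7.29 to 9.35 TPM in DMSO Treg, 5.72 to 7.78 TPM in Srci1-treated TH17, 4.25 to 5.19 TPM in knockout and 5.5 to 7.99 TPM in DMSO TH17 libraries. It was the 1 feedback gene lower in the knockout (log2 difference -0.43 ± 0.15, limma adjusted p = 0.0285), and the call ended when DMSO TH17 replicate 1 (limma adjusted p = 0.124), knockout replicate 1 (0.0809) or knockout replicate 3 (0.0826) was left out. The other 6 feedback genes were higher in the knockout as deposited, and 4 of them also after median-of-ratios scaling. Dusp2 (limma adjusted p = 0.422) and Dusp5 (0.141) lost their calls under that scaling. The Dusp2 knockout call (log2 difference 0.22, limma adjusted p = 0.0464) ended under 9 of 15 alternative settings, and that of Dusp5 under 3. Without DMSO TH17 replicate 3 the Dusp2 difference was 0.18 (limma adjusted p = 0.14). Knockout and DMSO TH17 libraries overlapped for Dusp2.

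Among surface receptors, Cd2 encodes an adhesion receptor that supports TCR signalling. It was at 1026, 1082 and 947 TPM in Srci1-treated and 1103, 1161 and 1097 TPM in DMSO Treg libraries. TH17 libraries held 1261, 1236 and 1179.6 TPM with Srci1 and 149.8, 131 and 144 TPM in the knockout, against 1227, 1108 and 1122 TPM with DMSO. The 3 knockout libraries lay far below all 12 others, and Cd2 had the highest group mean of the 49 genes in each group but the knockout, where Cd3g did. Cd2 was 8.15-fold lower in the knockout (log2 difference -3.02 ± 0.06, limma adjusted p = 2.62e-13). With Srci1 its 95% interval was -0.28 to -0.00 in Treg and -0.05 to 0.23 in TH17 cells. Cd5, an inhibitory receptor whose level follows TCR signal strength, was at 329, 347 and 341 TPM in Srci1-treated and 405, 417 and 416 TPM in DMSO Treg libraries, and at 326, 341 and 349 TPM in Srci1-treated, 319.6, 318 and 302 TPM in knockout and 304, 320.1 and 284 TPM in DMSO TH17 libraries. It fell with Srci1 in Treg (log2 difference -0.28 ± 0.05, limma adjusted p = 0.0011). In TH17 its difference was 0.16 (limma adjusted p = 0.0215) as deposited and -0.11 after median-of-ratios scaling, so no direction is given, and the call was also lost without DMSO TH17 replicate 3 (0.0806) or Srci1 replicate 2 (0.0564) or 3 (0.0839). Cd69, an early activation marker, was at 94, 75 and 97.3 TPM in Srci1-treated and 82.8, 72.8 and 85.8 TPM in DMSO Treg libraries, and at 114, 92.9 and 102 TPM in Srci1-treated, 81.4, 93.3 and 94.3 TPM in knockout and 94.5, 88.7 and 81 TPM in DMSO TH17 libraries. Neighbouring groups overlapped, and it was not called as deposited in any of the 5 pairwise comparisons. Cd6, a receptor related to CD5, was at 204 to 227 TPM in Srci1-treated Treg, 219 to 227 TPM in DMSO Treg, 217 to 224 TPM in Srci1-treated TH17, 204 to 211 TPM in knockout and 169 to 191 TPM in DMSO TH17 libraries, with group means spanning 1.21-fold.

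Whether Srci1 acted differently in the 2 cultures was tested directly, as its effect in TH17 minus its effect in Treg cells. Of the 49 genes 10 had a higher and 3 a lower effect in TH17, against 11.3% and 2.95% of all tested genes. The shift was 0.13, and median-of-ratios scaling gave 8 higher and 5 lower, against 8.88% and 5.55% of all tested genes. For Dusp4 the log2 effect was 0.26 in TH17 and -0.92 in Treg (difference 1.19 ± 0.15, limma adjusted p = 0.00014). The TH17 effect alone was -0.01 after median-of-ratios scaling, so its sign depends on the scaling, while the difference between cultures was still called at 1.04 (limma adjusted p = 1.29e-05). Cblb had -0.23 in TH17 and -1.05 in Treg (limma adjusted p = 0.0126), and Ubash3b -0.30 and -1.11 (adjusted p = 0.0327, up to 0.0832 with 1 library left out). The TH17 effects of both were not called as deposited but were called without DMSO TH17 replicate 3, for Cblb at -0.42 (limma adjusted p = 0.0086) and for Ubash3b at -0.51 (0.0118). Both were also called lower in TH17 after median-of-ratios scaling, at -0.49 and -0.55, and after quantile normalization. In the other direction as coded, Prkcq had 0.18 in TH17 and 0.63 in Treg (limma adjusted p = 0.00725), and Cd3g -0.68 and -0.32 (adjusted p = 0.00635). For Spry1 the difference of effects was 0.06 with a 95% interval of -0.21 to 0.32, and for Dusp6 -0.18 with -0.52 to 0.16. The effects share no library, but each rests on its own DMSO group.

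**Figure D5:**
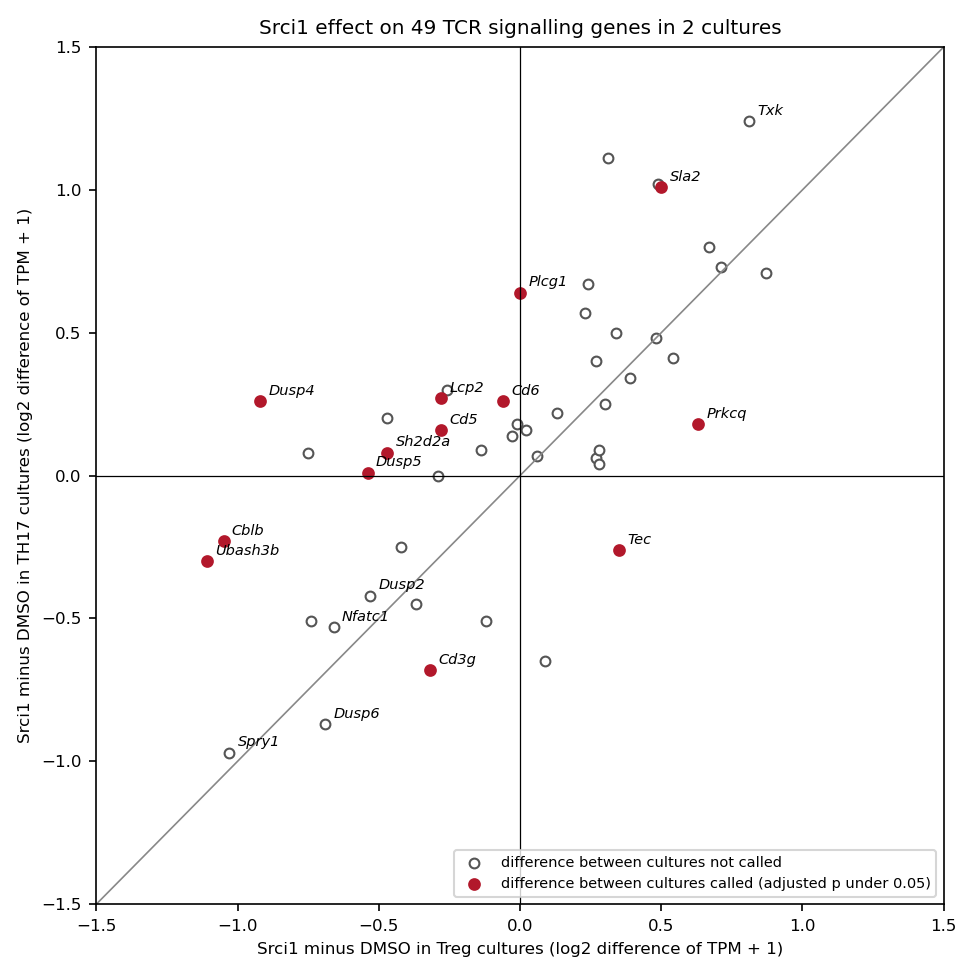
Srci1 effect (log2 difference of TPM + 1 against DMSO) in Treg (x axis) and TH17 cultures (y axis), 1 point a gene, with the diagonal marking equal effects; filled points are the 13 genes whose effects differed (limma adjusted p under 0.05). Spry1 lies near the diagonal at -1.03 and -0.97, and Dusp4 lies at -0.92 in Treg and 0.26 in TH17 cultures, a TH17 value whose sign turned after median-of-ratios scaling.

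Srci1 and loss of STAT3 were set against each other directly in TH17 cells. With Srci1 16 of the 49 genes were higher and 18 lower than in the knockout, against 30.6% and 18.4% of all tested genes. The shift was 0.11, and median-of-ratios scaling gave 14 higher and 22 lower, against 24.6% and 24.5% of all tested genes. The receptor subunits were lower with Srci1, by 4 of 5 genes called, with Cd3g 2.27-fold lower (log2 difference -1.18 ± 0.05, limma adjusted p = 5.31e-10) and Cd3e 1.83-fold lower (log2 difference -0.87 ± 0.07, limma adjusted p = 1.08e-07). Of 7 MAPK feedback genes 5 were lower and 1, Spred1, was higher (log2 difference 0.43 ± 0.15, limma adjusted p = 0.0288), with Dusp6 2.77-fold lower (log2 difference -1.36 ± 0.11, limma adjusted p = 2.23e-07) and Spry1 2.75-fold lower (log2 difference -1.37 ± 0.09, limma adjusted p = 1.55e-08). Higher with Srci1 were 6 of 8 effector enzymes, with none lower as deposited and Rasgrp1 lower after median-of-ratios scaling, and with Malt1 4.49-fold higher (log2 difference 2.15 ± 0.24, limma adjusted p = 4.77e-06). Nfatc1 was 3.47-fold lower and Nfatc2 2.92-fold higher with Srci1. Ubash3b was 3.39-fold lower, Dgkz 2.51-fold lower, and Cd2 8.66-fold higher. Txk was not called, with a 95% interval of -0.06 to 0.37, and Sla2 was not called either (-0.05 to 0.34).

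A second list of 46 pathway genes, none of them among the 49 and 45 of them tested, gave 13 higher and 6 lower for Srci1 in Treg, 20 higher and 1 lower for Treg against TH17 in DMSO, 22 higher and 4 lower for Srci1 in TH17, and 19 higher and 5 lower for the knockout. After median-of-ratios scaling these counts were 9 and 9, 17 and 6, 14 and 8, and 15 and 12 in the same order of comparisons. The shares of all tested genes as deposited were 17.1% higher and 10.0% lower for Srci1 in Treg, 32.3% and 12.5% for Treg against TH17, 33.8% and 7.08% for Srci1 in TH17, and 30.9% and 18.9% for the knockout. After median-of-ratios scaling they were 10.7% and 13.8%, 21.1% and 21.8%, 16.6% and 16.5%, and 25.7% and 25.4% in that order. Trat1, which encodes an adaptor held at the receptor, was at 46.2, 47.8 and 52.8 TPM in Srci1-treated and 24.5, 17.6 and 27.3 TPM in DMSO Treg libraries, and at 14.6, 13.6 and 12.1 TPM in Srci1-treated, 16.2, 19.4 and 13.9 TPM in knockout and 1.34, 2.26 and 2.03 TPM in DMSO TH17 libraries. DMSO TH17 libraries stood below all others. Trat1 was 7.15-fold higher with Srci1 in TH17 (log2 difference 2.34 ± 0.17, limma adjusted p = 2.79e-07), 2.12-fold higher in Treg (log2 difference 1.07 ± 0.17, limma adjusted p = 0.000381) and 8.8-fold higher in the knockout (log2 difference 2.61 ± 0.17, limma adjusted p = 1.61e-08). Ptpn22, a phosphatase that restrains Src family kinases, was at 47.1, 47.7 and 46.4 TPM in Srci1-treated and 81.4, 73.7 and 75.3 TPM in DMSO Treg libraries, and at 33.3, 28.4 and 28.5 TPM in Srci1-treated, 101, 114 and 93.2 TPM in knockout and 59, 58.5 and 49 TPM in DMSO TH17 libraries. Srci1 lowered it in both cultures (log2 difference -0.69 ± 0.09, limma adjusted p = 0.00011 in Treg; log2 difference -0.86 ± 0.09, limma adjusted p = 1.15e-05 in TH17) and it was 1.85-fold higher in the knockout (log2 difference 0.88 ± 0.09, limma adjusted p = 2.95e-06). Rasa3, a Ras GTPase-activating protein gene, rose with Srci1, 1.79-fold in Treg (log2 difference 0.82 ± 0.09, limma adjusted p = 2.54e-05) and 3.52-fold in TH17 (log2 difference 1.77 ± 0.09, limma adjusted p = 2.13e-08). The Src family kinase gene Fyn was 1.52-fold higher in the knockout (log2 difference 0.61 ± 0.07, limma adjusted p = 3.27e-06), and the calcineurin Aγ gene Ppp3cc was 2.05-fold lower (log2 difference -1.02 ± 0.07, limma adjusted p = 2.05e-08), opposite to Ppp3ca. Ptpn6, the SHP-1 phosphatase gene, was 1.8-fold higher in DMSO Treg than in DMSO TH17 libraries (log2 difference 0.84 ± 0.06, limma adjusted p = 1.19e-07). Orai1, the calcium channel gene, was 1.61-fold lower with Srci1 in Treg (log2 difference -0.68 ± 0.09, limma adjusted p = 0.000127), and Pik3cd, the PI3Kδ gene, 1.76-fold higher with Srci1 in TH17 (log2 difference 0.83 ± 0.11, limma adjusted p = 6.66e-05).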

How the data were processed

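The authors deposited 1 table of TPM values per gene for the 15 libraries. The tools that the submitters' processing notes list are RSEM 1.3.3 and STAR 2.7.9a, with GRCm38 as the genome build. Per the labels, poly(A) RNA libraries were made with a NEBNext Ultra II kit. TPM holds no depth, so no counting interval is given. The 12800 genes that reached 1 TPM in 3 or more libraries were tested on log2(TPM + 1) with limma 3.58.1 (R 4.3.3), using 1 linear model of the 5 group means, 10 residual degrees of freedom, a trended prior and Benjamini-Hochberg adjustment over all tested genes, with a call under 0.05. The pseudocount understates changes of low genes. Tables and figures used Python 3.11.15, pandas 2.3.3 and matplotlib 3.10.9, and the fit was tested on simulated data. Groups came from the labels.

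The 49 genes, the second list of 46 pathway genes and the markers were chosen with earlier results of these data known. Values of every library are given for genes called with at least a 1.5-fold difference of mean TPM and a mean of at least 5 TPM in either group, up to 12 a comparison by size, and for Cd3e, Cd247, Zap70, Lat, Cd5, Cd69, Dusp6 and Spry1. Up to 4 other pathway genes a comparison were named, by smallest adjusted p, and a few results for other genes are not reported here. Alternatives were a pseudocount of 0.1, no filter, a filter of 5 TPM, median-of-ratios and quantile scaling, only the compared groups, array weights, a replicate block and each library left out. Rescaling without 425 ribosomal protein and mitochondrial genes was added after the data were seen. Promoter windows came from RefSeq, and gene positions from GENCODE M21.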

Additional observations from a re-analysis of the deposited data

Results flagged for a closer look

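The Srci1 effect differed between the cultures for 13 of the 49 genes, by the limma test of the effect in TH17 minus the effect in Treg cells (log2, adjusted over all tested genes). It was higher in TH17 for 20.4% and lower for 6.12% of the 49, where 11.3% of all tested genes were higher and 2.95% lower. Dusp4 had the largest difference among the 13, at 1.19, with an effect of 0.26 in TH17 (-0.01 after median-of-ratios scaling) and -0.92 in Treg cells. The negative regulators Cblb (0.82), Ubash3b (0.81) and Sla2 (0.51) also had higher effects in TH17. Cblb had -0.23 in TH17 and -1.05 in Treg, Ubash3b had -0.30 and -1.11, and Sla2 was higher in both cultures, with 1.01 in TH17 and 0.50 in Treg cells. Without DMSO TH17 replicate 3 the TH17 effects were -0.42 for Cblb and -0.51 for Ubash3b. Among adaptors and effectors, Plcg1 differed by 0.64 (0.64 in TH17 and -0.00 in Treg), Lcp2 by 0.55 (0.27 and -0.28) and Sh2d2a by 0.55 (0.08 and -0.47). Dusp5 differed by 0.55 (0.01 and -0.54), Cd5 by 0.45 (0.16 and -0.28) and Cd6 by 0.33 (0.26 and -0.06). The TH17 effects of these 3 changed sign with the scaling: after median-of-ratios scaling that of Cd5 was -0.11 and that of Cd6 -0.01, and after quantile normalization that of Dusp5 was -0.27. Those of Lcp2, Sh2d2a and Prkcq also changed sign after median-of-ratios scaling, under which Sh2d2a was called lower with Srci1 in TH17. Lower effects in TH17 were found for Tec at -0.60 (-0.26 in TH17 and 0.35 in Treg), Prkcq at -0.45 (0.18 and 0.63) and Cd3g at -0.37 (-0.68 and -0.32).

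Dusp5 (limma adjusted p = 0.0516) and Cd6 (0.147) were not called after median-of-ratios scaling, and Sla2 (0.112) and Dusp5 (0.0594) were not called after quantile normalization. Leaving out 1 library ended the call for Tec (limma adjusted p up to 0.107), Ubash3b (up to 0.0832) and Plcg1 (up to 0.0617). The Tec call, at a limma adjusted p of 0.0453 with every library, was lost under 12 of 21 alternative settings, these fits included. Ubash3b lost its call under 7 of them and Plcg1 under 6. For the other 10 flagged genes each of the leave-one-out fits kept the call. Cd4, not flagged, was called with a lower effect in TH17 after median-of-ratios scaling, quantile normalization and rescaling without ribosomal protein and mitochondrial genes. Cd247 and Skap1 gained that call after quantile normalization and that rescaling, Dgka after median-of-ratios scaling, and Rcan1 and Themis after quantile normalization. Itpkb gained a higher effect after quantile normalization. Without DMSO TH17 replicate 3, Cd4 was called at -0.56 (limma adjusted p = 0.000994). The ribosomal share of TPM was lower with Srci1 in both cultures, and its part in these differences was not tested beyond the scalings named here.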

How the results depend on the processing

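Counts of called genes among the 49 depended mainly on scaling. The shares of all tested genes, given with each comparison above, also differed after median-of-ratios scaling. With median-of-ratios scaling 12 rather than 19 were higher with Srci1 in TH17, 14 rather than 9 were lower in the knockout, 11 rather than 6 were lower in Treg than TH17, and 5 rather than 3 had a lower Srci1 effect in TH17. That last count was 8 with quantile normalization, 6 with array weights and 6 without ribosomal protein and mitochondrial genes. With only the compared groups in the model 5 genes were lower in the knockout. Each other count stayed within 1.5 times under these settings, a pseudocount of 0.1, no filter and a filter of 5 TPM.

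Among results called on either scale, median-of-ratios scaling reversed the sign for Srci1 in TH17 of Cd5 (-0.11), Cd6 (-0.01), Dgka (-0.02), Lcp2 (-0.00), Prkcq (-0.09) and Sh2d2a (-0.18), and for Treg against TH17 of Bcl10 (-0.01). Quantile normalization reversed Dusp5 (-0.27) and Prkcq (-0.03) for Srci1 in TH17 and Rcan1 (-0.24) for Treg against TH17. Of 294 single-gene results, 242 stayed on their side of the threshold under median-of-ratios scaling, 20 lost a call, 25 gained one and 7 reversed as listed. A further 43 results changed sign that were not called on either scale, 14 of them for Srci1 in TH17, so the sign of a result that was not called is not read as a direction. The cause of these changes was not tested.

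Leaving out each library gave 11 to 12 higher and 15 lower for Srci1 in Treg, 23 to 28 higher and 5 to 9 lower for Treg against TH17, 15 to 21 higher and 9 to 12 lower for Srci1 in TH17, and 22 to 25 higher and 6 to 10 lower in the knockout. It gave 12 to 17 higher and 16 to 18 lower for Srci1 in TH17 against the knockout, and 8 to 13 higher and 2 to 4 lower Srci1 effects in TH17. The knockout count of 6 came without knockout replicate 3, and the Treg count of 9 lower without DMSO TH17 replicate 3.

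Whether equal replicate numbers mark paired libraries is not given in the sources used here. In their deviations from the group mean, same-numbered libraries of different groups correlated at -0.171 to 0.128 over 30 pairs. Of 15 libraries 3 matched their own number best. This check showed no pairing, but it cannot exclude a weak one beside larger differences between single libraries. With a replicate block the counts were 13 higher and 16 lower for Srci1 in Treg, 25 and 6 for Treg against TH17, 18 and 9 for Srci1 in TH17, 24 and 9 in the knockout, 16 and 18 for Srci1 against the knockout, and 10 and 2 for the effect in TH17 minus Treg. TPM gives no depth, so the precision of low genes such as Spry2 and Sos1 rests on 3 libraries a group alone.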
